A study of Mus musculus with 4 samples.

Results

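Small proline-rich proteins were followed here through 5 genes, *Sprr1a*, *Sprr1b*, *Sprr2a3*, *Sprr2d* and *Sprr3*, the members of the family read by a panel of 328 genes. Xenium in situ analysis locates the individual transcripts of such a panel within the tissue by probe and imaging, and each one is credited to the cell outline it falls in. There were 17 sections of mouse tissue, cut at 5 µm from fixed, paraffin-embedded blocks, on 4 slides. All skin came from Tet-On mice that carried TRE-*Pitx1* and *Krt5*-rtTA, in which doxycycline chow drives the transcription factor PITX1 in basal keratinocytes through the *Krt5* promoter, and Control littermates carried the same transgenes and received normal chow, named vehicle in the labels. The sections were Control 1 and 2 (female) and Control 3 (male) of unwounded dorsal skin, PITX1+ 1 and 2 (female) and PITX1+ 3 and 4 (male) of unwounded dorsal skin, Buccal 1 to 7 of buccal mucosa from untreated Control mice, and from male dorsal skin on day 4 after full-thickness wounding 1 Control wound and 2 PITX1+ wounds. The labels give the conditions held by a slide but not the condition of a section, so skin sections took theirs from their order on the slide, and ages are not stated. The study's legends count as many animals or mucosae of each condition as there are sections, but nothing ties a section to an animal. A p-value over sections measures the spread between these sections.

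Small proline-rich proteins are short, soluble precursors of the cornified envelope, the protein shell that replaces the plasma membrane of a keratinocyte at the end of its life. Transglutaminases crosslink their glutamine-rich and lysine-rich ends to loricrin, involucrin and other envelope proteins, and their proline-rich repeats are thought to set the flexibility of the shell. The genes lie together in the epidermal differentiation complex. Oral and other moist or mechanically loaded epithelia use several of them constitutively, whereas resting hair-bearing skin uses little and makes them after injury, irritation or inflammation.

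Transcription of *Sprr* genes is known to depend on AP-1 factors bound close to the start site, and PITX factors recognise a bicoid-type motif. Promoters were therefore read for both, from 250 bases before to 50 bases after the start in RefSeq (GRCm38.p6), in which all 5 genes were matched by symbol on chromosome 3. The AP-1 motif TGANTCA, which reads the same on both strands, was found in 3 of the 5, and in 9 of the 14 *Sprr* promoters of the table against 7.81% of 32851 promoters of all genes. Each window of 30 bases is given on the strand of its gene, with the motif in capitals, since this is the pattern that *Sprr1a*, *Sprr1b* and *Sprr2d* share, apart from its open middle base, and that *Sprr2a3* and *Sprr3* lack in this stretch.
Sprr1a, 146 bases before the start, chr3:92486009-92486038, minus strand: ataactaaagcTGAGTCAgagggtgaacta
Sprr1a, 116 bases before the start, chr3:92485979-92486008, minus strand: ggggaggagggTGAGTCAtaggtgactggt
Sprr1b, 111 bases before the start, chr3:92438872-92438901, minus strand: agcacctaggaTGAATCAtgtctgacaggc
Sprr2d, 193 bases before the start, chr3:92338936-92338965, plus strand: tgagtgctcacTGAGTCAcaggtctcaacg
The bicoid-type motif TAATCC, on either strand, was in 0 of the 14 *Sprr* windows and in 7.06% of all promoters, which says only that these letters are not in this stretch. By CUT&Tag-Seq the paper reports PITX1 bound close to *Sprr2a3*, with the promoter mark H3K4me3 unchanged there. The TATA box TATAAA, searched in the same way, was in 10 of 14 *Sprr* promoters, among them *Sprr1a*, *Sprr1b*, *Sprr2d* and *Sprr3*, against 13.6% of all. In the members no match of one motif overlapped a match of another. The promoter of *Sprr2a3* was identical to that of *Sprr2a1* over 272 bases, and those of *Sprr2a1* and *Sprr2a2* were identical over all 300. Transcript and probe sequences were not compared, so whether *Sprr2a3* probes also read transcripts of these genes is not known.

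Cells were grouped by k-means on genes that did not include the 5 members, and clusters were named from marker lists with the ending -like. Keratinocyte-like cells comprised basal-like, differentiated-like and hair follicle-like cells. Keratinocyte clusters without 3 markers of a single leading kind among their 10 leading genes were kept apart as mixed keratinocyte-like cells. Among them were clusters led by *Shh*, a marker of hair follicle keratinocytes, and by the cell cycle genes *Prc1* and *Top2a*. Mixed cells made up 9.88% to 11.4% of all keratinocyte-like and mixed cells in Control skin but 33.3% to 70.9% in PITX1+ skin. Their share was 34.5% in the Control wound, 64.3% and 71.6% in the PITX1+ wounds and 2.33% to 7.61% in buccal mucosa. Buccal 3 held too few keratinocyte-like cells to be used, which left 6 buccal sections. Levels are CPM, the count of a gene over the total of panel transcripts in the cells of one kind and section, brought to a common scale. Levels can be compared between sections, but not between genes, whose probes differ. Log2 differences from edgeR use TMM scaling instead, which centres most genes, and so do not follow directly from CPM. Relative to scaling by the class total, it moved the median of all genes in keratinocyte-like cells by 0.50 between PITX1+ and Control skin, by 1.37 between buccal mucosa and Control skin and by -0.70 between PITX1+ skin and buccal mucosa. Control sections held 127390 to 340442 keratinocyte-like transcripts and PITX1+ sections 750826 to 1442793, so the Control values rest on the smaller counts.

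*Pitx1* itself, the induced gene, was checked first. In keratinocyte-like cells it stood at 15.7 CPM in Control 3 and at 950.1 and 567.4 CPM in PITX1+ 3 and 4, all of them male. Female Control 1 and 2 held 52.9 and 53.6 CPM and female PITX1+ 1 and 2 held 22.0 and 29.8 CPM, so the sections labelled PITX1+ by position showed no higher *Pitx1* there. Its level was 727.8 to 1263 CPM in buccal mucosa, 47.9 CPM in the Control wound and 413 and 170.5 CPM in the PITX1+ wounds. The numbers of cells of PITX1+ 1 and 2 lay closer to totals listed for PITX1+ skin than to any for Control skin. They were off by 0.332% and 0.0856% from the nearest PITX1+ total and by 237% and 299% from the nearest of another condition. Mixed cells made up 70.1% and 70.9% of their keratinocyte-like and mixed cells against 11.3% and 9.88% in Control 1 and 2. Differences between PITX1+ and Control sections of the female slide rest on these labels.

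In buccal mucosa all 5 members were read at high levels in keratinocyte-like cells. Members took 9.98% to 15.6% of all panel transcripts of keratinocyte-like cells there, against 0.246% to 0.367% in Control skin. *Sprr3*, a member typical of moist stratified epithelia, led the family in this tissue with 37.3% to 53.8% of its transcripts, as the probes counted them. *Sprr3* lay between 49871 and 69860 CPM in the 6 buccal sections (median 53164) and at 537.5, 338 and 47.1 CPM in Control 1, 2 and 3. *Sprr1a*, an envelope precursor that also responds to injury, lay between 17377 and 33064 CPM (median 23654) in buccal mucosa and at 1554, 903 and 385 CPM in Control skin. *Sprr1b*, its close relative, lay between 7901 and 17170 CPM (median 11557) against 161.6, 103 and 62.8 CPM. For every one of these genes the lowest buccal section stood far above the highest Control section. *Sprr2a3* and *Sprr2d* belong to the large *Sprr2* group of short members. *Sprr2a3* lay between 11731 and 42555 CPM (median 24149) in buccal mucosa and at 1172, 1258 and 1735 CPM in Control skin, and *Sprr2d* between 2125 and 8961 CPM (median 5081) against 247, 235 and 228 CPM. Among Control sections the female slide held more *Sprr3* and *Sprr1a* than the male section, while *Sprr2d* was level.

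**Figure D1:**
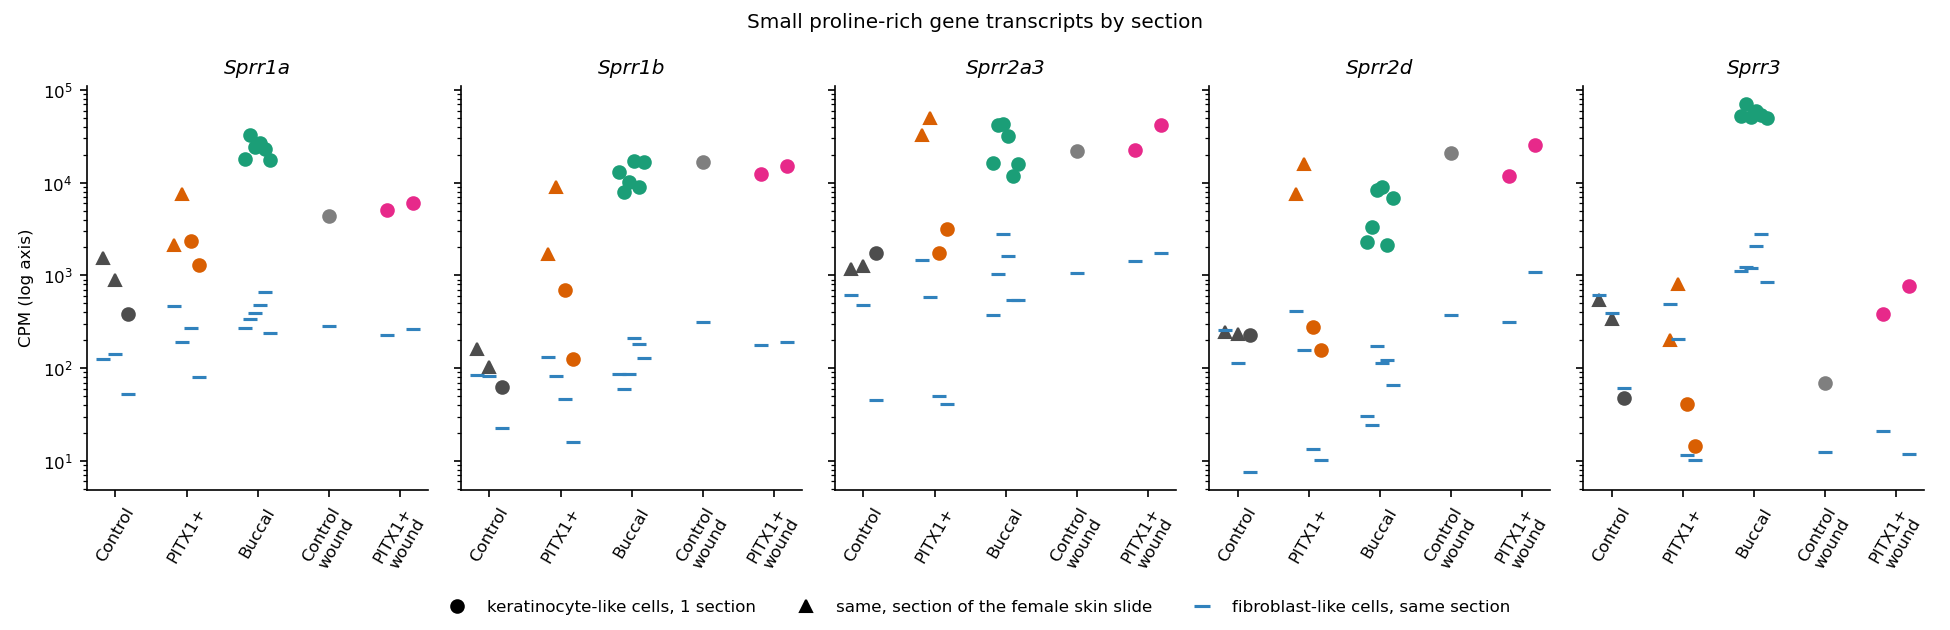
Levels of the 5 members in keratinocyte-like cells, in CPM on a log axis, with 1 point for each section (triangles for the female skin slide) and the sections grouped as Control, PITX1+, buccal mucosa, Control wound and PITX1+ wound. Short bars give the fibroblast-like cells of the same section. Each buccal section stood above every Control section for all 5 genes, and *Sprr3* alone was near its Control level, 68.7 CPM, in the Control wound.

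Buccal mucosa was compared with Control skin by edgeR's quasi-likelihood test on counts summed per section, which asks how far oral and skin epithelium without induction differ. Of 318 genes tested, 230 passed an adjusted p of 0.05 (72.3%), 101 of them higher in buccal mucosa (31.8%). All 5 members were among the higher ones, with 6 of 6 buccal sections above every Control section. The log2 difference was 8.95 (SE 0.669, adjusted p = 5.54e-07) for *Sprr3*, 8.21 (SE 0.518, adjusted p = 1.72e-07) for *Sprr1b* and 6.11 (SE 0.480, adjusted p = 8.95e-07) for *Sprr1a*. It was 5.91 (SE 0.713, adjusted p = 2.73e-05) for *Sprr2d* and 5.62 (SE 0.660, adjusted p = 2.37e-05) for *Sprr2a3*. The median of the members was 6.11 beside -0.27 over all genes tested. Scaled to the class total, 252 genes passed, 50 of them higher, and all 5 members were higher again, by 4.27 to 7.46. Without Control 1, *Sprr3* stood at 9.60. *Pitx1* differed by 5.75 in the same fit. With mixed cells added, all 5 members were higher again, among 228 of 323 genes called (70.6%, with 32.5% higher). Tissue and slide cannot be told apart in this comparison.

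The same comparison was made within each kind of cell, though the tissues filled a kind with different clusters. Of differentiated-like cells, 8279 and 3601 buccal cells lay in 2 clusters led by *Mt4* and *Krt4* and by *Krt78* and *Krt4* that held 0 Control cells, and 3797 Control cells in the cluster led by *Krt77* and *Krt1*, with 2 buccal cells. Of basal-like cells, 7865 buccal and 8 Control cells lay in one cluster, and 6311 Control and 32 buccal cells in another. In differentiated-like cells, where 224 of 318 genes were called (70.4%, with 33% higher), all 5 members were higher in buccal mucosa, by 10.24 on the log2 scale for *Sprr3* (adjusted p = 4.32e-09), 8.73 for *Sprr1b* (adjusted p = 4.44e-08) and 6.08 to 6.94 for the other members. Scaled to the class total, which moved the median of all genes by 1.93, 275 genes passed, 50 of them higher, and the members were higher by 8.25 for *Sprr3*, 6.75 for *Sprr1b* and 4.21 to 4.93 for the others. *Sprr1a* moved from 6.94 to 7.83 without Control 1 and *Sprr2a3* from 6.08 to 6.83 without Control 3. In basal-like cells, where 197 of 289 were called (68.2%, with 31.8% higher), *Sprr1b* (4.22, adjusted p = 0.00075), *Sprr2a3* (3.27, adjusted p = 0.00287) and *Sprr3* (3.00, adjusted p = 0.00132) were higher, and *Sprr1a* (-0.15, adjusted p = 0.776) and *Sprr2d* (0.43, adjusted p = 0.681) did not pass. *Sprr1a* in basal-like cells lay between 356 and 1284 CPM in buccal mucosa, which overlapped the range of 615 to 1534 CPM in Control skin. Buccal 1, 2 and 7, at 356, 530 and 479 CPM, lay below every Control section. *Sprr3* in buccal basal-like cells lay between 1270 and 4712 CPM, which overlapped the 853 to 2794 CPM read in fibroblast-like cells of buccal mucosa. Whether the difference itself differed between the kinds of cell was not tested.

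Fibroblast-like cells, which should not make these proteins, were taken as the background, and the origin of the transcripts read in them was not tested. In Control 1, 2 and 3 they read *Sprr3* at 621, 389 and 60.8 CPM, above the keratinocyte-like level each time, so *Sprr3* in Control skin could not be told from background. *Sprr2d* stood at 256, 113 and 7.61 CPM in the same cells, above its keratinocyte-like level in Control 1 and below it in Control 2 and 3. *Sprr1b* stood at 85.4, 81.9 and 22.8 CPM, below its keratinocyte-like level in every Control section. *Sprr1a* stood at 124, 143 and 53.2 CPM and *Sprr2a3* at 613, 481 and 45.6 CPM, below the keratinocyte-like level in every Control section. Differences from Control skin were computed as measured, background included. In buccal mucosa fibroblast-like cells read *Sprr3* at 853 to 2794 CPM, against at least 49871 CPM in keratinocyte-like cells.

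PITX1+ skin was compared with Control skin with slide, and thereby sex, as a covariate. *Sprr1a* was the member that passed in keratinocyte-like cells, and *Sprr2a3* and *Sprr2d* separated the slides instead. *Sprr1a* stood at 2139, 7504, 2327 and 1305 CPM in PITX1+ 1 to 4, and 3 of these 4 values exceeded every Control section. *Sprr1b* stood at 1698, 8879, 697 and 125 CPM, with only PITX1+ 4 inside the Control range. *Sprr2a3* stood at 32676 and 49796 CPM in the female and 1728 and 3167 CPM in the male sections, and *Sprr2d* at 7474 and 15781 CPM against 277 and 157 CPM. In this class both *Sprr2* genes were within or above the buccal range on the female slide and near the Control level on the male slide. In basal-like and differentiated-like cells, compared below, *Sprr2a3* stood above every Control section on the male slide too. The class held different cells on the slides, since hair follicle-like cells made up 3.09% and 5.96% of keratinocyte-like and mixed cells in PITX1+ 1 and 2, 40.9% and 37.3% in PITX1+ 3 and 4, and 16.7%, 18.8% and 28.5% in Control 1 to 3. These shares leave out mixed clusters led by hair follicle markers such as *Shh*. Their total includes mixed cells, which the class itself leaves out. Within the class, basal-like and differentiated-like cells were 459 and 2192 of 10462 cells in PITX1+ 3. They were 956 and 2088 of 6895 in PITX1+ 4 and 758 and 1654 of 3558 in Control 3. In PITX1+ 1 they were 2537 and 3204 of 6403, and in PITX1+ 2 2634 and 4381 of 8822. All other cells of the class were hair follicle-like. *Sprr3* stood at 198.8, 811, 41.4 and 14.7 CPM, which overlapped the Control range. Fibroblast-like cells of the same sections read it at 493.5, 208, 11.6 and 10.2 CPM, so that *Sprr3* was below this background in PITX1+ 1 and little above it in PITX1+ 4.

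Of 328 genes, 32 passed an adjusted p of 0.05 in edgeR's quasi-likelihood test (9.76%), 19 of them higher in PITX1+ skin (5.79%), and 1 of the 5 members was among these. *Sprr1a* differed by 2.58 on the log2 scale (SE 0.568, adjusted p = 0.0358). *Sprr1b* differed by 5.02 (SE 1.26, adjusted p = 0.0514), *Sprr2a3* by 3.43 (SE 1.43, adjusted p = 0.125), *Sprr2d* by 3.57 (SE 1.78, adjusted p = 0.185) and *Sprr3* by 0.60 (SE 0.745, adjusted p = 0.573). The median of the members was 3.43 beside -0.16 over all genes. Scaled to the class total, 56 genes passed, of which 17 were higher, with *Sprr1a* (2.07, adjusted p = 0.0336) and *Sprr1b* (4.40, adjusted p = 0.0232) among them, and *Sprr3* turned to -0.087. The call of *Sprr1a* was lost without Control 1 (2.67, adjusted p = 0.122), Control 2 (2.36, adjusted p = 0.119), PITX1+ 2 (1.82, adjusted p = 0.0704) or PITX1+ 3 (2.50, adjusted p = 0.0625). *Sprr2a3* ran from 2.17 without Control 1 to 6.22 without Control 3, and *Sprr2d* from 1.90 to 6.76 in the same settings. Leaving out Control 3, the lone male Control section, leaves the female slide alone to set the difference. Without the male slide *Sprr2a3* stood at 6.21 and *Sprr2d* at 6.75. More members passed without Control 3 or the male slide. Far more genes of the whole panel passed without the male slide too, as counted in the closing section. With mixed cells added, where 123 of 328 genes passed (37.5%, with 17.4% higher), *Sprr1a* (2.92, adjusted p = 0.00616), *Sprr1b* (4.24, adjusted p = 0.0140) and *Sprr2d* (3.85, adjusted p = 0.0419) were higher.

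The difference between PITX1+ and Control skin was itself tested between the slides, and 54 of 328 genes passed (16.5%). The value of each slide is a difference of mean log2 CPM after TMM scaling, which lies above that from the class totals by a median of 0.83 on the female slide and below it by 0.11 on the male slide. The difference between slides comes from the fit, so the values need not subtract exactly. *Sprr2a3* differed by 5.88 on the female slide and by 0.32 on the male slide, a difference of -5.55 (male minus female, SE 0.678, adjusted p = 0.00577). *Sprr2d* differed by 6.30 and -0.23, a difference of -6.65 (SE 0.811, adjusted p = 0.00577). From the class totals the slides gave 5.05 and 0.43 for *Sprr2a3* and 5.48 and -0.12 for *Sprr2d*. Both *Sprr2* genes kept this call when any section that could be left out was left out, with *Sprr2d* at -5.84 without PITX1+ 2. Control 3 could not be left out, and as the lone Control section of its slide it was assumed to vary like the other groups. In differentiated-like cells alone, where 19 of 289 genes passed (6.57%), both passed again (*Sprr2a3* -5.06, adjusted p = 0.0116, and *Sprr2d* -6.35, adjusted p = 0.0122). In basal-like cells alone, where 23 of 312 passed (7.37%), *Sprr2a3* did (-3.67, adjusted p = 0.00282) and *Sprr2d* did not (-1.14, adjusted p = 0.669). With mixed cells added, *Sprr2a3* passed again (-4.74, adjusted p = 0.00409) and *Sprr2d* did not (-3.70, adjusted p = 0.264). *Sprr1a* differed by 2.58 and 2.06 (difference -0.76, adjusted p = 0.656), though a p above the threshold does not show that they are equal. *Sprr1b* differed by 5.69 and 2.08 (adjusted p = 0.270) and *Sprr3* by 0.74 and -0.93 (adjusted p = 0.462), the first of which was -0.084 from the class totals. *Pitx1* ran the other way, with -0.20 on the female and 5.18 on the male slide, or -0.97 and 5.30 from the class totals (difference 5.63, SE 0.920, adjusted p = 0.0134). Slide and sex cannot be told apart.

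**Figure D2:**
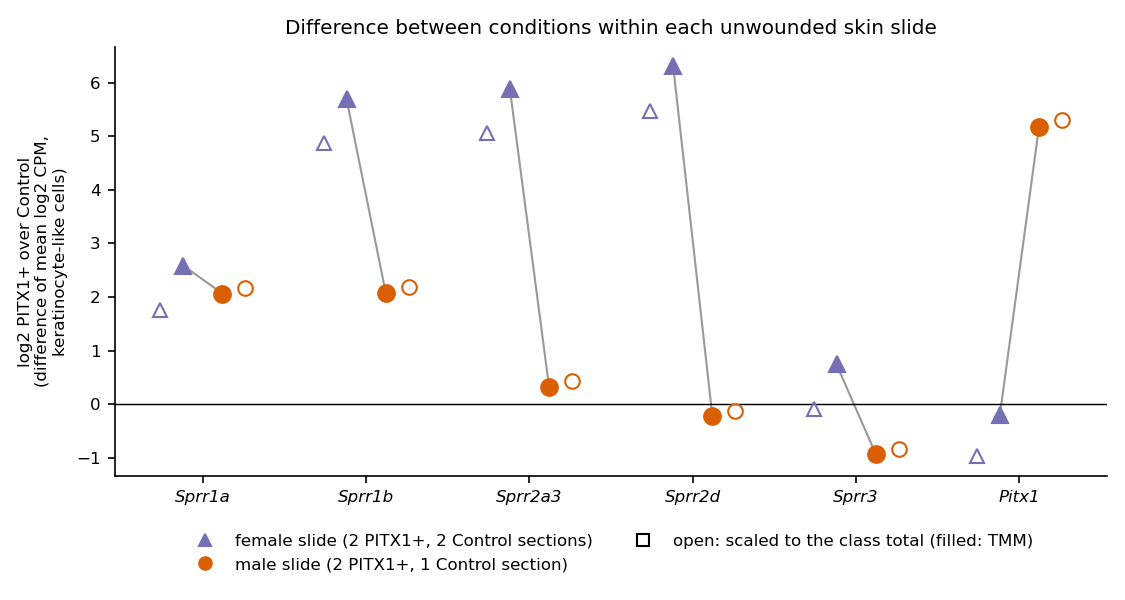
Difference between PITX1+ and Control skin within each slide of unwounded skin, as the mean log2 CPM of PITX1+ minus that of Control sections in keratinocyte-like cells, for the 5 members and *Pitx1*. Triangles stand for the female slide and circles for the male slide, filled and joined by a line after TMM scaling and open when scaled to the class total. After TMM scaling *Sprr2a3* stood at 5.88 and 0.32, *Sprr2d* at 6.30 and -0.23 and *Pitx1* at -0.20 and 5.18.

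PITX1+ and Control skin were also compared within kinds of keratinocyte. In basal-like cells, where 13 of 312 genes passed (4.17%, with 3.21% higher), *Sprr2a3* stood at 1168, 1193 and 1845 CPM in Control 1 to 3 and at 27431, 40659, 6055 and 5178 CPM in PITX1+ 1 to 4, so that all 4 PITX1+ sections were higher, the male ones included. Its log2 difference was 3.70 (SE 0.784, adjusted p = 0.0306), and that of *Sprr2d* was 2.13 (SE 0.476, adjusted p = 0.0348). *Sprr2d* stood at 218, 182 and 123 CPM in Control skin and at 575, 914, 556 and 167 CPM in PITX1+ skin, with PITX1+ 4 inside the Control range. *Sprr1a* differed by 0.12 there (adjusted p = 0.842). In differentiated-like cells *Sprr2a3* stood at 1136, 1324 and 2565 CPM in Control skin and at 35923, 56424, 6316 and 8100.0 CPM in PITX1+ skin, again without overlap, and *Sprr2d* at 252, 298 and 379 CPM against 9834, 20648, 920 and 411 CPM. Most Control cells of this kind, 3797, lay in the cluster led by *Krt77* and *Krt1*, which held 4495 PITX1+ cells, whereas 5178 and 2188 PITX1+ cells lay in 2 clusters with 5 and 116 Control cells. Within the first of these clusters *Sprr2a3* stood at 1200, 1330.5 and 2505 CPM in Control skin and at 25652, 35223, 5840 and 8232 CPM in PITX1+ skin, without overlap, though PITX1+ 2 had 73 cells there. In differentiated-like cells 1 of 289 genes passed in edgeR's test (0.346%) and 0 members did, with 74 genes and 4 members at an unadjusted p under 0.05, and 63 genes and 4 members by DESeq2. Without Control 3, which leaves the female slide alone to set the difference, 66 genes and 4 members passed in edgeR's test.

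The mixed cells held most *Sprr1a* of PITX1+ skin. They carried 61.9% to 89.8% of its transcripts in PITX1+ sections, 33.9% to 41.7% in Control sections, 36.2% in the Control wound and 76.8% to 83.1% in the PITX1+ wounds. Within mixed cells *Sprr1a* stood at 10067, 9472.5 and 5547 CPM in Control 1 to 3 and at 22970, 12341, 17907 and 8879 CPM in PITX1+ 1 to 4. In these cells 89 of 328 genes passed between PITX1+ and Control skin (27.1%, with 16.5% higher), with *Sprr1a* (1.23, adjusted p = 0.0422), *Sprr1b* (3.53, adjusted p = 0.0101) and *Sprr2d* (4.22, adjusted p = 0.0275) higher and *Sprr2a3* (1.41, adjusted p = 0.196) and *Sprr3* (-0.86, adjusted p = 0.323) short of the threshold. *Sprr2d* stood at 270.4, 262 and 152 CPM in Control skin and at 7015, 2223, 2789 and 110.0 CPM in PITX1+ skin, with PITX1+ 4 below every Control section. These Control levels rest on very few transcripts. The whole family had 414, 235 and 103 transcripts in mixed cells of Control 1 to 3. *Sprr2d* made up 2.17%, 2.13% and 1.94% of them and *Sprr1b* 0.966%, 0.426% and 0.971%. The share of mixed cells moved with the condition as given above, and its part in the difference of *Sprr1a* between PITX1+ and Control skin was not tested.

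Among mixed clusters, a cluster led by *Krt79*, *Plet1* and *Crabp2*, the first pair known from the upper hair follicle, held *Sprr1a* at a median of 15807 CPM over Control sections (range 10629 to 18587) and 38343 CPM over PITX1+ sections (range 34300 to 47015). A cluster led by *Aldh1a3*, *Arg1*, *Hbegf* and *Plet1* held both *Sprr1a* and *Sprr2d* in PITX1+ skin, at medians of 34106 and 29544 CPM over 3 sections. A cluster led by *Tgfa*, *Krt75*, *Dlx3* and *Areg* held *Sprr1a* at a median of 28937 CPM over 4 PITX1+ sections but *Sprr2a3* at 1146 and *Sprr2d* at 534 CPM. *Sprr1a* was thus high also where *Sprr2* levels were low. In the differentiated-like cluster led by *Krt77* and *Krt1*, which held most differentiated-like cells of Control skin, the pattern was different. *Sprr2a3* had a median of 1330 CPM over Control and 16942 CPM over PITX1+ sections there, and *Sprr1a* of 575 and 786 CPM. Sebaceous-like cells held *Sprr1a* at 1433, 1516 and 1245 CPM in Control 1 to 3 and at 3149, 4334, 3984 and 3350 CPM in PITX1+ 1 to 4, with no overlap.

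PITX1+ skin was also set against buccal mucosa, which asks whether members stood at the oral level. Of 318 genes, 187 passed (58.8%), 59 of them lower in PITX1+ skin (18.6%). *Sprr3* was lower by 8.02 on the log2 scale, background included (log2 difference -8.02, SE 1.35, adjusted p = 0.000489). *Sprr1a* was lower too (log2 difference -3.31, SE 0.674, adjusted p = 0.00148). *Sprr1b* differed by -2.43 (SE 1.03, adjusted p = 0.0588), and passed as lower with library size scaling (adjusted p = 0.0473), DESeq2 (0.00443), 30 clusters (0.00550) and 60 clusters (0.00865). Without PITX1+ 2, *Sprr1b* stood at -4.52 and passed (adjusted p = 0.00173), *Sprr1a* at -4.45 and *Sprr3* at -9.94, and *Sprr1b* also passed without PITX1+ 4 (adjusted p = 0.0409). The other members did not pass, with *Sprr2a3* at -0.68 (SE 0.945, adjusted p = 0.549) and *Sprr2d* at -0.20 (SE 1.11, adjusted p = 0.890). Without PITX1+ 2 they stood at -1.65 and -1.53, and with 30 clusters at -1.57 and -1.17, again without passing. The standard errors of the *Sprr2* genes leave room for differences of several-fold either way, since PITX1+ sections lay on both sides of the buccal range. In differentiated-like cells *Sprr1a* (-3.59, adjusted p = 0.00297) and *Sprr3* (-8.15, adjusted p = 0.000249) were lower again, among 195 of 308 genes called (63.3%, with 24% lower in PITX1+ skin). Without PITX1+ 2 these stood at -5.32 and -10.46, and *Sprr1b* moved from -2.48 to -4.99 and passed (adjusted p = 0.00178). With mixed cells added, *Sprr1b* (-3.89, adjusted p = 0.000685) and *Sprr2a3* (-2.18, adjusted p = 0.0352) were lower as well, among 202 of 324 genes called (62.3%, with 23.8% lower). In basal-like cells, where 155 of 280 genes passed (55.4%, with 25.4% lower), *Sprr3* was the 1 member called. Slide and tissue cannot be told apart here, and the comparisons share sections with those above.

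Within a section, differentiated-like cells were set against basal-like cells, on log2(CPM + 10). In buccal mucosa all 5 members were higher in differentiated-like cells in 6 of 6 sections, by 5.55 ± 1.17 (SD, n = 6) for *Sprr2d*, 5.36 ± 0.63 for *Sprr1a*, 5.21 ± 0.70 for *Sprr3*, 3.76 ± 1.19 for *Sprr1b* and 1.98 ± 0.64 for *Sprr2a3*. The exact sign-flip permutation test (two-sided) gave p = 0.03125 for each, the smallest that 6 sections allow, and an adjusted p of 0.09375 over 15 tests. *Sprr2a3* therefore had the flattest step, with 2816 to 22433 CPM already in basal-like cells. In PITX1+ skin *Sprr2d* (2.63 ± 1.92, SD, n = 4), *Sprr1a* (1.46 ± 1.27) and *Sprr2a3* (0.39 ± 0.24) stood higher in differentiated-like cells in 4 of 4 sections. No mean is given there for *Sprr1b*, read at 0 in basal-like cells of PITX1+ 4, and *Sprr3*, read at 0 in those of PITX1+ 3 and 4, since the size of their steps is set by the added 10 CPM. The smallest p that 4 sections allow in the exact test is 0.125. In Control skin the mean steps were between -0.53 and 0.81, and the exact test cannot go below 0.25 with 3 sections.

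**Figure D3:**
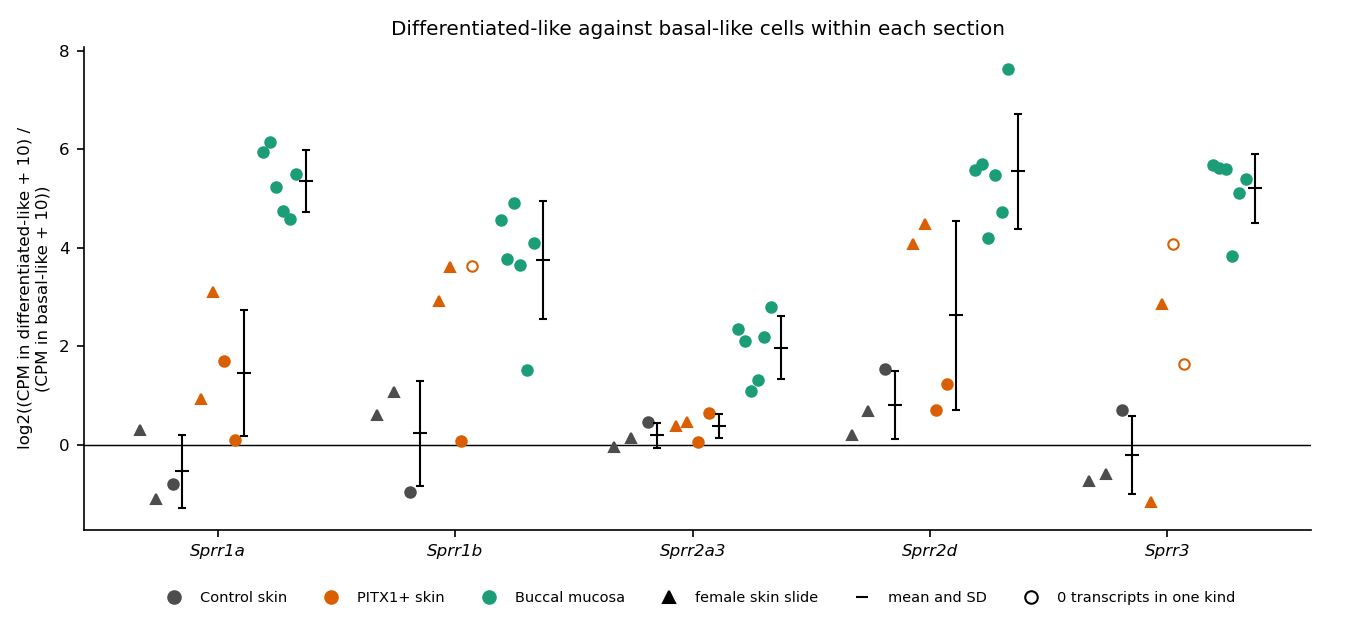
Step from basal-like to differentiated-like cells within each section, as log2 of (CPM + 10) in differentiated-like over basal-like cells, for the 5 members, with 1 point for each section (grey for Control, orange for PITX1+, green for buccal mucosa, triangles for the female skin slide, open symbols where one kind had 0 transcripts) and bars for mean and SD where no symbol is open. All 6 buccal sections lay above 0 for every member, with the smallest mean step, 1.98, for *Sprr2a3*.

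Distance from the nearest basal-like cell gave a finer order. The transcripts of a member in basal-like and differentiated-like cells were set against all panel transcripts of differentiated-like cells. Since this reference leaves out transcripts in basal-like cells, a gene also read there comes out nearer. The sign of a difference therefore depends partly on the level in basal-like cells. In buccal mucosa the transcripts of *Sprr2d* lay 12.6 ± 6.94 µm (SD, n = 6) farther out than the median transcript of differentiated-like cells, those of *Sprr1a* 11.4 ± 2.53 µm and those of *Sprr3* 8.12 ± 1.06 µm, each in 6 of 6 sections (exact sign-flip permutation test, two-sided, p = 0.03125, adjusted p = 0.146 over 14 tests). *Sprr1b* (0.045 ± 3.56 µm, n = 6, exact p = 0.9375) and *Sprr2a3* (0.44 ± 1.78 µm, n = 6, exact p = 0.5625) showed no common direction. Each lay farther out in 3 of 6 sections, with ranges of -5.44 to 5.44 µm and -2.02 to 2.54 µm. Read from the nearest stromal cell instead, *Sprr2d* lay 13.02 µm, *Sprr1a* 10.5 µm and *Sprr3* 7.29 µm farther out.

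By bins of 10 µm in buccal mucosa, *Sprr1b* peaked early, with a median of 20135 CPM at 20 to 30 µm and 8219 CPM at 90 to 100 µm. *Sprr2d* peaked late, from 263 CPM within 10 µm to 14175 CPM at 60 to 70 µm, and stood at 3802 CPM at 90 to 100 µm, where 5 sections had enough transcripts. *Sprr1a* was highest at 50 to 60 µm, with 52628 CPM, *Sprr3* stayed between 89441 and 98838 CPM from 30 to 100 µm, and *Sprr2a3* was flat from 20 µm outward, between 27272 and 34087 CPM. In PITX1+ skin too *Sprr2d* lay farther out than *Sprr2a3*. *Sprr2a3* lay 4.55 ± 1.41 µm nearer to basal-like cells than the median transcript in 4 of 4 sections (difference -4.55, exact p = 0.125), and *Sprr2d* lay 3.92 ± 3.76 µm farther out in 4 of 4 (n = 4, exact p = 0.125), both at the smallest p that 4 sections allow. Read from the nearest stromal cell, *Sprr2a3* lay nearer in 4 of 4 sections again, and *Sprr2d* lay farther out in 3 of 4 (3.15 ± 4.12 µm, n = 4, exact p = 0.375). With mixed cells counted in, *Sprr2a3* in PITX1+ skin lay nearer in 3 of 4 sections and 52.6 µm farther out in the other, a mean of 10.7 ± 27.9 µm (SD, n = 4). In Control skin, from basal-like cells and without mixed cells, every member with enough transcripts also lay nearer. The mean difference was -3.26 µm for *Sprr2a3* (n = 3), and -3.59 µm for *Sprr1a*, -3.06 µm for *Sprr2d* and -4.64 µm for *Sprr3* (n = 2 each).

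**Figure D4:**
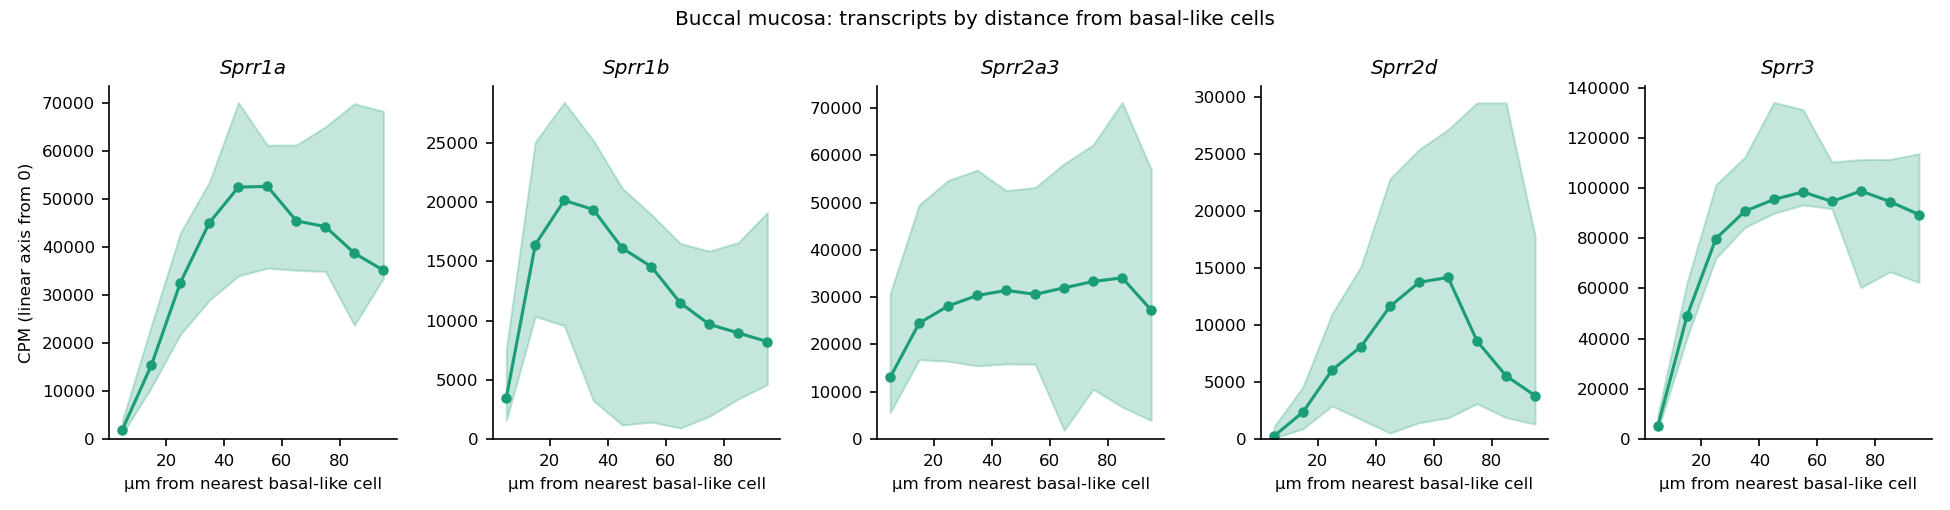
Level of each member by distance from the nearest basal-like cell, in bins of 10 µm, in buccal mucosa, with the median over sections as a line and the range as a band, in CPM. In buccal mucosa *Sprr1b* was highest between 20 and 30 µm, *Sprr1a* between 50 and 60 µm and *Sprr2d* between 60 and 70 µm.

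Members were seen together in single cells of buccal mucosa, PITX1+ skin and wounds. After each cell was thinned to 30 transcripts, which left out 998 differentiated-like cells of Control skin, 744 of PITX1+ skin and 118 of buccal mucosa as too shallow, 78.0% to 88.6% of buccal differentiated-like cells held at least 1 member transcript and 50.4% to 62.6% held at least 2 members, against 6.93% to 10.5% and 0% to 0.383% in Control skin. In fibroblast-like cells at least 1 member was held by 4.57% to 12.7% of cells in buccal mucosa and 0.176% to 4.76% in Control skin. In PITX1+ skin the share of differentiated-like cells with a member ran from 18.01% to 89.7%, and that with at least 2 members from 0.612% to 43.8%. At least 2 members were held by 40.6% of these cells in the Control wound and by 40.6% and 48.8% in the PITX1+ wounds. *Sprr3* was held by 55.4% to 70.6% of thinned buccal differentiated-like cells, and by 74.4% to 88.8% before thinning.

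The share of transcripts over the nucleus also differed between genes, but it pools kinds of keratinocyte and was not compared within 1 kind. In buccal mucosa a median of 91.8% (*Sprr2a3*) to 98.8% (*Sprr2d*) of a member's transcripts lay in differentiated-like cells. For other genes the median was 49.0%, with 64.3% in all keratinocyte-like or mixed cells. In buccal keratinocyte-like and mixed cells, 28.4% of the transcripts of other genes lay over the nucleus (median of 6 sections, range 24.6% to 33.0%), but 8.58% of those of *Sprr1a*, 8.31% of *Sprr2d*, 9.54% of *Sprr3*, 13.7% of *Sprr2a3* and 14.8% of *Sprr1b*. In Control skin 87.1% and 91.6% of *Sprr3* lay over the nucleus in the 2 sections with enough transcripts, and 74.2% and 79.6% of *Sprr2d*, against 45.5% to 48.3% of other genes. *Sprr1a* in Control skin had 29.9% to 32.8% over the nucleus. In buccal mucosa 96.3% to 99.6% of the members' transcripts lay in keratinocyte-like or mixed cells, while *Sprr3* in Control 1 and 2 had 42.2% and 45.02% there.

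On day 4 after wounding, 4 members were high in the Control wound and *Sprr3* was not. *Sprr1b* stood at 16765 CPM in keratinocyte-like cells of the Control wound and at 12321 and 15162 CPM in the PITX1+ wounds. *Sprr2d* stood at 20975 CPM and at 11929 and 25786 CPM, and *Sprr2a3* at 21737 CPM and at 22786 and 42132 CPM. *Sprr1a* stood at 4361.5 CPM and at 5075 and 6049 CPM. In these cells, without the mixed ones, the Control wound lay on one side of both PITX1+ wounds for *Sprr1b*, *Sprr2a3* and *Sprr1a*. It did so by less than 1 doubling for each of these genes. For *Sprr3* the Control wound lay below both PITX1+ wounds by more than 1 doubling, with levels given below. With mixed cells added, members took 5.64% of transcripts in the Control wound and 5.56% and 8.69% in the PITX1+ wounds. *Sprr1a* made up 9.79% of these member transcripts in the Control wound but 27.2% and 15.7% in the PITX1+ wounds. *Sprr3* stood at 68.7 CPM in the Control wound, with 21.4% of its transcripts in keratinocyte-like or mixed cells, and at 384 and 777 CPM in the PITX1+ wounds, where it made up 0.732% and 0.864% of the family. Against unwounded Control 3, the Control wound read 92.1 times as much *Sprr2d*, 12.5 times as much *Sprr2a3*, 11.3 times as much *Sprr1a* and 267 times as much *Sprr1b*, the last against 8 transcripts in Control 3. By kind of cell the fold of *Sprr1a* was 13.2 in differentiated-like cells, 1.49 in basal-like cells and 1.57 in mixed cells. Of the differentiated-like cells of the Control wound, 648 and 272 lay in clusters that held few cells of Control skin. In the cluster led by *Krt77* and *Krt1*, which both held, *Sprr1a* stood at 1523 CPM in the Control wound and at 328 CPM in Control 3, *Sprr2d* at 2023 and 358 CPM, and *Sprr2a3* at 19030 and 2505 CPM. *Sprr1b* stood there at 1249 CPM in the Control wound and at 59.6 to 201 CPM over the Control sections. With 1 Control wound no test was made, and wounding cannot be told apart from the slide.

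The longest stretch with few keratinocytes, under 10 in each 100 µm, was 2800 µm in the Control wound and 2700 and 2600 µm in the PITX1+ wounds. From its edges outward, in bins of 500 µm, *Sprr1b* in keratinocyte-like cells of the Control wound stood at 29025, 13660, 12608, 4001 and 1248 CPM, and then at 0 transcripts in 62 cells, which allows up to 855 CPM. Its 95% Poisson intervals in the first bins were 28196 to 29873 and 13050 to 14292 CPM, and cover counting error only. *Sprr2d* stayed high for 3 bins, at 24828, 28460 and 19406 CPM, and then stood at 2330, 104 and 232 CPM. *Sprr2a3* stood at 25378 CPM at the edge and at 3301 and 13219 CPM in the last bins. *Sprr1b* and *Sprr2d* were thus highest within 1500 µm of the gap in the Control wound. The make-up of the class moved with distance there, from 411 differentiated-like cells of 600 in the first bin to 128 of 565 at 1500 to 2000 µm and 81 of 374 at 2000 to 2500 µm. In differentiated-like cells alone *Sprr1b* stood at 33718, 18420, 21466 and 7150 CPM and then at 0 transcripts in 81 cells, and *Sprr2d* at 29068, 38626, 32960, 7511 and 269 CPM. In the PITX1+ wounds the lowest bin of either gene was at 4940 CPM in keratinocyte-like cells and at 6813 CPM in differentiated-like cells. *Sprr2d* stood at 13031 CPM at the edge of PITX1+ wound 1 and at 15824 CPM in the last bin, and at 29596 and 19399 CPM in PITX1+ wound 2, while *Sprr1b* stood at 23246 and 7585 CPM in the first and at 28310 and 11368 CPM in the second. *Sprr3* was read at 1808 and 3262 CPM within 500 µm of the gap in the PITX1+ wounds and at 94.0 CPM in the Control wound. Immune-like cells read *Sprr2d* at 887 CPM in the Control wound and at 2288 and 4865 CPM in the PITX1+ wounds, and where these transcripts came from was not tested.

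**Figure D5:**
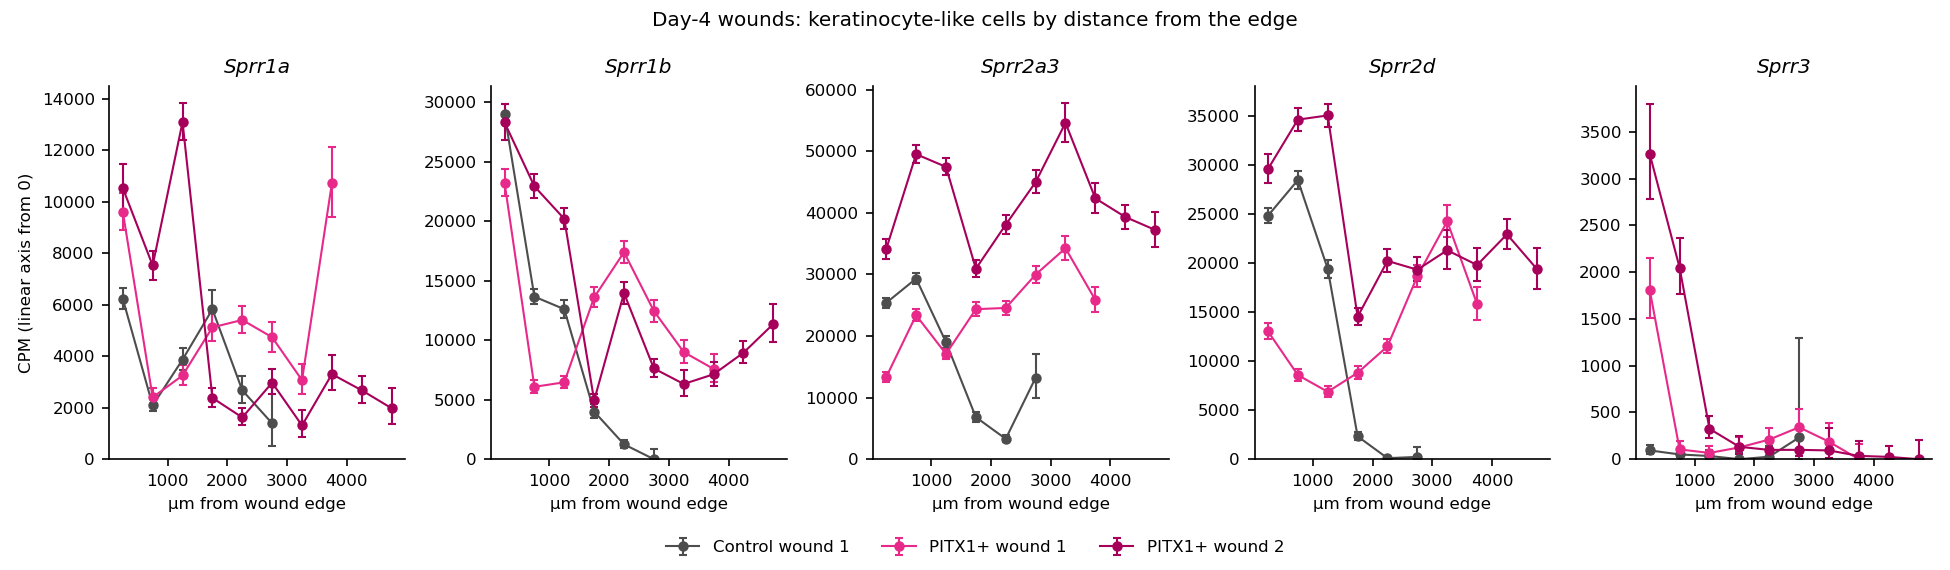
Level of each member in keratinocyte-like cells by distance from the edge of the gap, in bins of 500 µm, in the Control wound and the 2 PITX1+ wounds, in CPM with 95% Poisson intervals. *Sprr1b* and *Sprr2d* were lower beyond 1500 µm in the Control wound, and their lowest bin in the PITX1+ wounds was at 4940 CPM.

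Other genes of the program were counted from fixed lists in keratinocyte-like cells, and their counts are to be read beside the shares of all genes called, 9.76% between PITX1+ and Control skin, 72.3% between buccal mucosa and Control skin and 58.8% between PITX1+ skin and buccal mucosa. Of 7 further genes of the cornified envelope and terminal differentiation, 1 was higher in PITX1+ than in Control skin, *Tgm3* (3.87, adjusted p = 0.0158), which encodes an epidermal transglutaminase. In buccal mucosa 3 were higher than in Control skin and 3 lower, with *Tgm3* higher (8.18, adjusted p = 7.65e-09) and *Flg2* (-9.18, adjusted p = 5.05e-10) and *Ivl* (-7.03, adjusted p = 5.63e-08), genes of a filaggrin relative and of involucrin, lower. Between PITX1+ skin and buccal mucosa 4 were higher in PITX1+ skin and 2 lower, and *Ivl* (8.46, adjusted p = 7.52e-06), *Flg2* (8.30, adjusted p = 8.05e-08) and *Flg* (7.45, adjusted p = 3.35e-05) led the higher ones. The median of this list was 1.08, 0.19 and 1.52 in the 3 comparisons, against -0.16, -0.27 and 0.59 over all genes. Scaled to the class total, 2 were higher and 4 lower in buccal mucosa than in Control skin.

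Of 11 genes of activated or inflamed epithelium, 3 were higher in PITX1+ skin than in Control skin and 0 lower, namely *Slpi* (5.84, adjusted p = 0.0165), a protease inhibitor, *Krt16* (4.99, adjusted p = 0.0356), a keratin of activated keratinocytes, and *S100a8* (4.76, adjusted p = 0.00528), an alarmin. In buccal mucosa 9 were higher than in Control skin and 0 lower, led by *Slpi* (9.83, adjusted p = 6.06e-09), and scaled to the class total 6 were higher and 2 lower. Of 10 transcription factors known at epidermal differentiation, which unlike the other lists took part in the clustering, 2 were higher in PITX1+ skin, *Dlx3* (2.79, adjusted p = 0.00990) and *Cebpb* (1.40, adjusted p = 0.0247), and in buccal mucosa 6 were higher and 1 lower, *Atf3* (-3.04, adjusted p = 0.000537), an AP-1 relative, a share of called genes like that over all genes. Scaled to the class total 4 were higher and 3 lower, and *Cebpb* did not pass between PITX1+ and Control skin (adjusted p = 0.127). *Junb*, an AP-1 subunit, was 1.22 higher in buccal mucosa (adjusted p = 0.000409) and stood at -0.13 when scaled to the class total (adjusted p = 0.639).

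Over the 16 sections with keratinocyte-like cells, each member was set against every panel gene by Pearson's correlation of log2(CPM + 10). This is a description, since sections that share a slide may not be independent. *Sprr1a* was most like *Slpi* (0.971), *Dsc2* (0.965) and *Tgm3* (0.949), and *Sprr1b* most like *Il1f6* (0.948), *Gsdmc* (0.943) and *Cnfn* (0.908). *Sprr2a3* and *Sprr2d* were most like each other among members (0.926), and both were close to *Fabp5* (0.938 and 0.915). *Sprr3* was most like *Krt4* (0.951), a keratin of oral epithelium, *Chil3* (0.939) and *Sox2* (0.927), and stood apart from *Sprr2d* (0.384) and *Sprr2a3* (0.518).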

How the data were processed

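The authors deposited, for each of 4 slides, the Xenium output with counts of transcripts per cell, not normalized, and a quality score and position for every transcript. Instrument software, segmentation and probe sequences are not given in the sources used here. Outlines of cells and nuclei were not used. Panel transcripts were summed per cell where their quality score was 20 or more, and the sums equalled the deposited counts in 100% of cells. Between 98.1% and 99.1% of transcripts lay in cells. Sections were separated by joining cells within 100 µm (200 µm for wounds), keeping groups of at least 2000 cells, and took their condition from their order on the slide. In the 14 unwounded and buccal sections the number of cells lay closer to a total listed by the study for the same condition than to any of another. The depth of a section was 474847 to 749248 transcripts for Control skin. It was 2832562 to 5581930 for PITX1+ skin, 136365 to 2368603 for buccal mucosa, and 1622746, 3336168 and 5430303 for the wounds.

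Cells with at least 10 transcripts were clustered (k-means, 45 clusters on 40 principal components of log-scaled values, scikit-learn 1.9.0) without 24 genes (the members, *Pitx1* and the lists of the cornified envelope and of activated epithelium). A cluster was named from marker lists by its 10 leading genes, and a kind of keratinocyte needed 3 of its markers there, more than any other kind. This rule and the mixed class were chosen once the clusters were known. No doublets were removed. Counts were summed per section and class and tested with the quasi-likelihood test of edgeR 4.0.16 (R 4.3.3, TMM scaling after filterByExpr, Benjamini-Hochberg adjustment over all genes tested, threshold 0.05). CPM in the text is scaled to the total of the class, and log2 differences from edgeR use TMM scaling unless stated. Paired differences within sections used exact sign-flip tests (scipy 1.17.1, pandas 2.3.3 and numpy 2.4.6 in Python 3.11.15). Distances needed 50 transcripts of a gene in a section, and compared the median over a gene's transcripts in basal-like and differentiated-like cells with that over all transcripts of differentiated-like cells. The gap of a wound is the longest run of 100 µm bins with under 10 keratinocyte-like or mixed cells, a definition set after seeing the data. The test was tried on simulated data before use. Buccal 3 had too few keratinocyte-like cells, so the design's 17 sections became 16.

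The members and lists were chosen with earlier results of these data known. The genes named are the members, *Pitx1*, up to 3 called genes with the largest change from each list, and the 3 panel genes most correlated with each member. *Junb* and the genes leading clusters were named after their values were seen. Alternatives were library size scaling, DESeq2 1.42.0, all genes unfiltered, counts over the nucleus alone, at least 20 transcripts per cell, 30 or 60 clusters, no slide covariate, pseudocounts of 1 and 100 CPM, means of distances and leaving out each section. Basal-like, differentiated-like (between slides) or mixed cells alone, mixed cells added, the female slide alone and the distance to stromal cells were chosen after seeing the data.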

Additional observations from a re-analysis of the deposited data

Results flagged for a closer look

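In groups of 4 to 6 sections, 45 sets of values of a member in 1 kind of cell were searched for a section far from the rest, and 10 were found. Chance gives about 1 in 20 only for normally distributed values in independent sets. These sets held CPM on the raw scale and overlapped, since keratinocyte-like cells contain the other kinds, so the count cannot be held against that rate. PITX1+ 2 stood far above the other PITX1+ sections with *Sprr1a* in keratinocyte-like cells (7504 CPM, next 2327) and in differentiated-like cells (9379, next 2143), with *Sprr3* in differentiated-like cells (1031, next 159) and with *Sprr2d* in hair follicle-like cells (1641, next 272). In basal-like cells, Buccal 6 stood apart with *Sprr1b* (3775 CPM, next 1562), Buccal 4 with *Sprr2d* (567, next 225) and Buccal 5 with *Sprr3* (4712, next 2062). In mixed cells, Buccal 4 stood apart with *Sprr1a* (18210 CPM, next 2635) and *Sprr3* (11686, next 3286) and Buccal 6 with *Sprr1b* (5708, next 1020).

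The difference between PITX1+ and Control skin in keratinocyte-like cells itself differed between the male and the female slide (male minus female, log2) by -5.55 for *Sprr2a3*, by -6.65 for *Sprr2d* and by 5.63 for *Pitx1*, from the interaction term of edgeR's quasi-likelihood test.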

How the results depend on the processing

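In keratinocyte-like cells all 5 members stayed higher in buccal mucosa than in Control skin under every alternative except basal-like cells alone, which left 3 members called and *Sprr1a* at -0.15. Counts over the nucleus gave smaller differences, with *Sprr3* moving from 8.95 to 6.01 and *Sprr2d* from 5.91 to 3.32. In differentiated-like cells they moved *Sprr3* from 10.24 to 7.22 and *Sprr2d* from 6.34 to 3.85. The comparison of PITX1+ with Control skin (32 genes and 1 member called) moved most. It gave 56 genes and 2 members with library size scaling, 141 and 4 with DESeq2, 69 and 2 with 30 clusters, 79 and 2 with 60 clusters, 6 and 0 without the slide covariate, 13 and 2 in basal-like cells, 123 and 3 with mixed cells, 89 and 3 in mixed cells alone, and 129 and 4 without the male slide. Leaving out 1 section gave 10 to 88 genes and 0 to 4 members, with 0 members without Control 1, Control 2, PITX1+ 2 or PITX1+ 3 and 4 without Control 3. The setting without Control 3 leaves the female slide alone to set the difference. *Sprr3* turned to -0.087 with library size scaling, -0.12 over the nucleus, -0.82 in basal-like cells, -0.11 with mixed cells and -0.86 in mixed cells alone, and ran from -0.58 to 1.42 when 1 section was left out. In differentiated-like cells (1 gene and 0 members) it gave 16 and 2 with library size scaling, 63 and 4 with DESeq2, 17 and 1 over the nucleus, 2 genes with at least 20 transcripts per cell, 0 without the slide covariate, and 0 to 66 genes and 0 to 4 members with 1 section left out.

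Between PITX1+ skin and buccal mucosa *Sprr2d* turned to 0.15 with library size scaling, 0.43 over the nucleus and 1.43 in basal-like cells, and in differentiated-like cells to 0.28 and 0.77 in the first and second of these settings. With 1 section left out it ran from -1.53 to 0.087, and from -1.68 to 0.28 in differentiated-like cells. Basal-like cells alone left 1 member called, with *Sprr1a* at 0.078 and *Sprr2a3* at 0.81, mixed cells made it 4, and in differentiated-like cells DESeq2 called 1, *Sprr1b* (adjusted p = 0.0238), and gave no adjusted p for *Sprr1a* (-3.47) and *Sprr3* (-8.03), and over the nucleus *Sprr2a3* stood at 0.22 there. For the difference between slides (54 genes, 2 members), 122 genes passed with library size scaling, 106 with DESeq2, 13 genes and 1 member with mixed cells, 19 genes and 2 members in differentiated-like cells, 23 genes and 1 member in basal-like cells (with *Sprr1a* at 0.37), and 12 to 82 genes with 1 section left out, while *Sprr1a* turned to 0.27 with library size scaling and ran from -1.44 to 0.61.

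In Control skin the step from basal-like to differentiated-like cells turned to 0.0039 for *Sprr3* with 30 clusters and to 0.47 for *Sprr1a* with 60 clusters, and with 1 section left out it ran from -0.66 to 0.051 for *Sprr3* and from -0.17 to 0.84 for *Sprr1b*. In buccal mucosa the distance of *Sprr1b* turned to -1.69 µm with means and -1.15 µm with 30 clusters, and ran from -1.03 to 1.14 µm with 1 section left out, and that of *Sprr2a3* turned to -0.74 and -0.57 µm. In PITX1+ skin the distance from stromal cells was -1.75 µm for *Sprr1a* and 0.35 µm for *Sprr3*, and with mixed cells *Sprr2a3* lay at 10.7 µm and *Sprr3* at 45.7 µm. The causes were not tested. Beyond sharing a slide, sections of different conditions could not be paired, because the labels give no numbers that tie a section of one condition to a section of another. Control sections hold the fewest transcripts, and their low members rest on few counts.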
